A study of Rattus norvegicus with 96 samples.

Results

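Granins are acidic proteins of the dense-core granules in which neurons and endocrine cells store peptides. The 4 genes described here are Chga (chromogranin A), Chgb (chromogranin B), Scg2 (secretogranin II) and Vgf (VGF nerve growth factor inducible). They were chosen by name, as all probe sets whose annotation carries 1 of these symbols alone. Each symbol had 1 probe set, so the granins were 4 of 31042 non-control probe sets and 4 of 14217 genes with a probe set of a single symbol.

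In a neuron, granin proteins aggregate in the trans-Golgi network, help to form the granule, bind calcium and amines there, and are released together with the neuropeptides. Proprotein convertases cut granins into peptides of their own, such as pancreastatin from chromogranin A, secretoneurin from secretogranin II and TLQP peptides from VGF. The central nucleus of the amygdala is rich in peptide-releasing GABA neurons, and granins are used there and elsewhere as general marks of the regulated secretory pathway.

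The series holds 96 Affymetrix arrays of RNA from the central nucleus of the amygdala of single rats. The rats came from 5 pairs of lines selectively bred for alcohol intake. With the preferring line before the slash, there were 9/10 rats of HAD1/LAD1 and 10/10 of HAD2/LAD2. There were likewise 10/10 of P/NP, 10/10 of AA/ANA and 8/9 of sP/sNP. The labels used here name the line pair and the preference of each rat, and give no sex, age, alcohol exposure or other treatment for any group. Lines were bred apart, so a difference between 1 pair of lines can come from selection or from chance fixation of alleles, and these cannot be told apart within a pair. In tissue RNA, fewer cells of a type and less RNA per cell cannot be told apart either.

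The cAMP response element, the palindrome TGACGTCA bound by CREB, is a known element of several granin promoters. Stretches before the gene starts are shown because the 4 genes co-varied across arrays. Whether the element has a part in that co-variation was not tested. RefSeq windows of GRCr8, from 250 bases before to 50 bases after a gene's start, matched 3 of the 4 granins: Chgb, Scg2 and Vgf. Capitals mark the element, and the bases are given 5′ to 3′ on the gene's own strand.
Scg2, chr9:88256972-88256999, minus strand: gctgagccggTGACGTCAgcgaggaatg
Vgf, chr12:25277093-25277120, minus strand: gaatgaacatTGACGTCAatggggcggg
Chgb, chr3:140496612-140496711, plus strand: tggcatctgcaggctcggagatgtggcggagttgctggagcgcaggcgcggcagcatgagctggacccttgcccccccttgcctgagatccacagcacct
The element began 123 bases before the start of Scg2 and 90 bases before that of Vgf. Among all 33469 windows, 1.83% held it. The Chgb window held neither the full element nor its core TGACG on either strand; 21.2% of all windows held the core, which the full element contains. The other motifs searched on both strands were CCAAT (37.5% of windows), TATAAA (14.2%) and CACGTG (6.42%). Vgf had all 3 of these, and Scg2 and Chgb had none of the 3. A match describes letters and not a bound site, and the gene spans that RefSeq gives for Scg2 and Vgf reach further upstream than the starts used for these windows.

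Some arrays did not resemble the line on their label. In a score built from the 100 probe sets that best separated a pair, without the granins and without the scored array, 14 of 96 arrays lay on the other line's side on odd and on even chromosomes alike. They are called doubted arrays here: 2 were HAD1 or LAD1, 4 were P or NP, 4 were AA or ANA, 4 were sP or sNP, and 0 came from the HAD2 or LAD2 line. The arrays sP 2 and sNP 2 were close to identical, with an SD of 0.090 over the differences of all probe sets against 0.16 for the next closest pair of arrays. The array titled LAD1 36 carries HAD1 in its source name and was kept as LAD1. Its scores were -0.78 on odd and -0.96 on even chromosomes, where negative is the LAD1 side, so it is not a doubted array. Removing the doubted arrays favours differences of genes other than the granins, since arrays were doubted for going against such differences. Array medians lay between 7.77 and 8.02. The log2 ratio of 3′ to 5′ GAPDH probe sets, a sign of RNA quality, was 3.33 to 4.09 on average in the HAD and LAD lines and 0.20 to 0.43 in the other 6 lines.

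The tissue label was compared with marker genes of central amygdala neurons. The list had 10 of 11 genes measured, from 5.81 for Calcrl to 14.31 for Gad1 on the log2 scale, on which the lowest value of the table was 3.68. The mean of the list lay between 8.14 and 9.87 in arrays of the HAD and LAD lines and between 9.16 and 10.90 (log2) in the other lines. Markers of neighbouring tissue varied between arrays too. The mean of 7 striatal genes lay between 8.35 and 11.74, and that of 6 basolateral and cortical genes between 6.60 and 10.49. For 5 choroid plexus genes it lay between 5.895 and 10.725, with the highest value in a P array, beside a P line mean of 6.81. The share of neighbouring tissue in an array was not tested. None of the 10 central amygdala genes passed the test in any line pair. Over all genes, 0.682% passed in HAD1 and LAD1, 3.75% in HAD2 and LAD2, and 0% in the others. All marker lists of cell types together had 66 genes measured. Of these, 3 were lower in HAD1 than in LAD1, and 4 were higher and 3 lower in HAD2 than in LAD2. In the other line pairs 0 of the 66 passed.

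All 4 granins were bright on these arrays. Probe sets of different genes cannot be ranked against each other, so the order of levels is given within each gene. Chga was brightest in ANA (12.07 ± 0.26, SD, n = 10), followed by AA, P, NP, sNP, sP, LAD2, LAD1 and HAD2, and was lowest in HAD1 (mean 10.997 ± 0.27, n = 9). The only neighbours in that order whose means lay further apart than both SDs were sP and LAD2, with a gap of 0.44. Vgf went from 12.08 ± 0.21 (n = 10) in ANA through NP, AA, P, sNP, sP, LAD2, HAD1 and LAD1 to 11.15 ± 0.25 (n = 10) in HAD2, and again only the gap between sP and LAD2, 0.46, was larger than both SDs. Scg2 went from 13.53 ± 0.26 (n = 10) in AA through ANA, P, NP, sNP, sP, LAD2, HAD2 and HAD1 to 12.60 ± 0.26 (n = 10) in LAD1. Here the gap above both SDs was that between HAD2 and HAD1, 0.29. Chgb had another order and a narrower range, from 12.90 ± 0.19 (n = 10) in LAD2 through HAD2, AA, ANA, sNP, P, sP, NP and LAD1 to 12.49 ± 0.16 (n = 9) in HAD1, and 0 of its 9 gaps was larger than both SDs. No source used here says whether the 5 pairs were normalized together, and the GAPDH ratio splits the same lines, so a difference in level between pairs cannot be told apart from array processing. Differences were therefore tested within pairs.

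**Figure D1:**
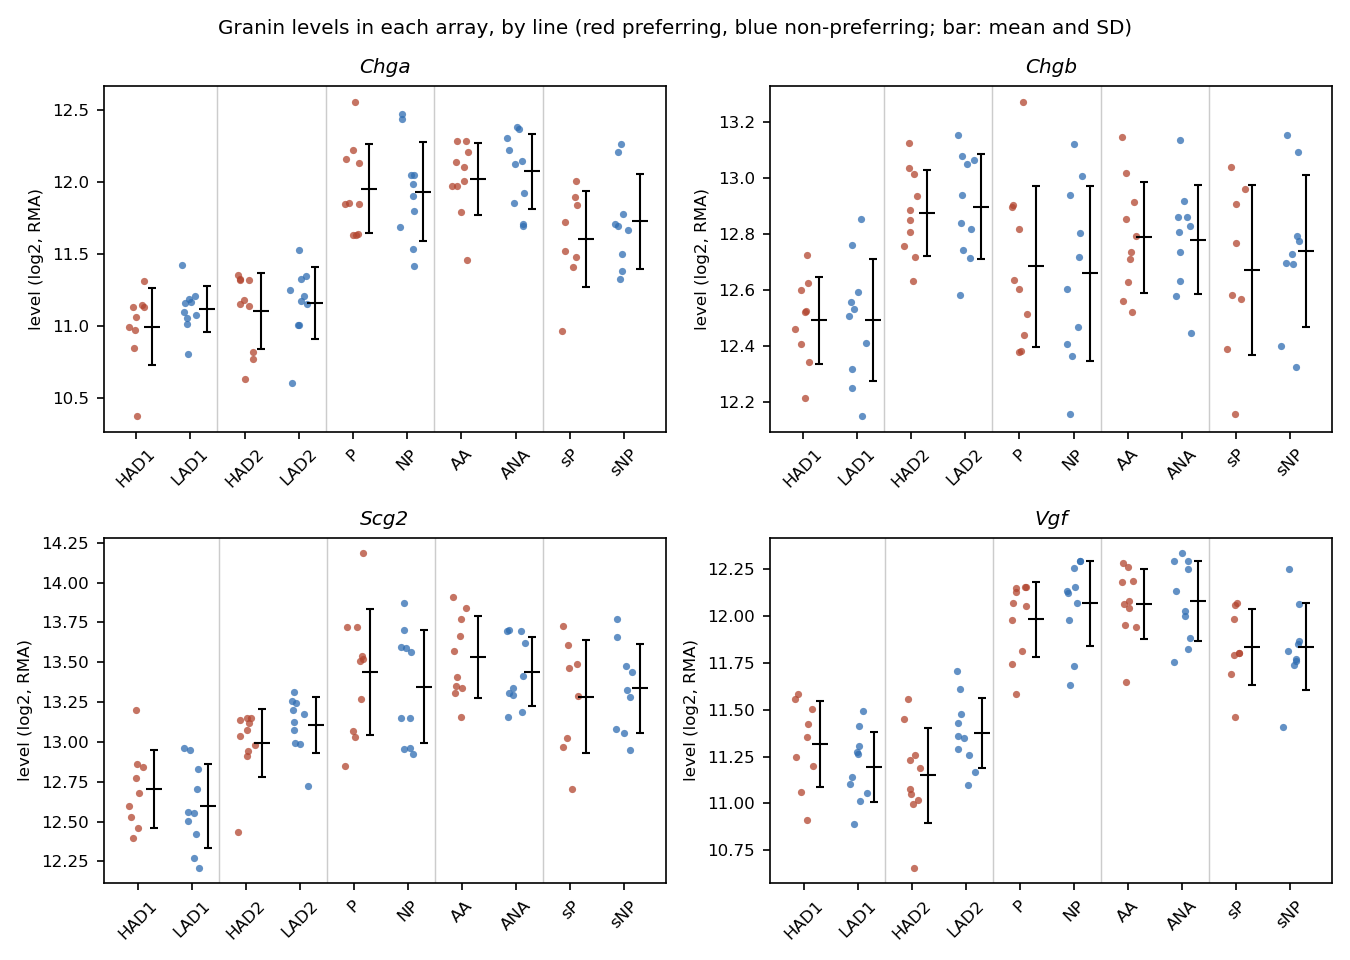
Level of each granin (log2 RMA value, vertical axis) in each array, by line, with the preferring line of a pair in red and the other in blue, and mean ± SD beside the points. Within every pair the points of both lines overlap, while the means of Chga, Scg2 and Vgf lie lower in the 4 HAD and LAD lines than in the other 6.

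Chga, the first granin described and the precursor of pancreastatin and vasostatin, did not pass the test in any pair. In the HAD1 line, Chga lay between 10.38 and 11.31 with a median of 11.06, and in the LAD1 line between 10.81 and 11.43 with a median of 11.13, a difference of -0.12 ± 0.096 (SE, n = 9 and 10; limma, adjusted p = 0.689). In the HAD2 line, Chga lay between 10.63 and 11.35 with a median of 11.16, and in the LAD2 line between 10.61 and 11.53 with a median of 11.19, a difference of -0.060 ± 0.11 (SE, n = 10 and 10; limma, adjusted p = 0.799). Both pairs overlapped over most of their range, and HAD1 30 lay below all other HAD1 arrays. In the P line, Chga lay between 11.63 and 12.56 with a median of 11.85, and in the NP line between 11.42 and 12.47 with a median of 11.94, a difference of 0.019 ± 0.14 (SE, n = 10 and 10; limma, adjusted p = 1). In the AA line, Chga lay between 11.46 and 12.29 with a median of 12.05, and in the ANA line between 11.69 and 12.38 with a median of 12.13, a difference of -0.051 ± 0.11 (SE, n = 10 and 10; limma, adjusted p = 0.983). In the sP line, Chga lay between 10.96 and 12.01 with a median of 11.62, and in the sNP line between 11.33 and 12.26 with a median of 11.70, a difference of -0.12 ± 0.14 (SE, n = 8 and 9; limma, adjusted p = 1). The preferring line was the lower one in 4 of 5 pairs, with differences down to -0.12, and the ranges of the lines overlapped in each pair.

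Chgb, whose protein is a calcium-binding part of the granule matrix, had the smallest mean difference. In the HAD1 line, Chgb lay between 12.22 and 12.73 with a median of 12.52, and in the LAD1 line between 12.15 and 12.85 with a median of 12.52, a difference of -0.0019 ± 0.088 (SE, n = 9 and 10; limma, adjusted p = 0.997). In the HAD2 line, Chgb lay between 12.63 and 13.12 with a median of 12.87, and in the LAD2 line between 12.58 and 13.15 with a median of 12.89, a difference of -0.022 ± 0.071 (SE, n = 10 and 10; limma, adjusted p = 0.893). The medians of both lines nearly coincided in each of these pairs. In the P line, Chgb lay between 12.38 and 13.27 with a median of 12.62, and in the NP line between 12.16 and 13.12 with a median of 12.66, a difference of 0.025 ± 0.13 (SE, n = 10 and 10; limma, adjusted p = 1). In the AA line, Chgb lay between 12.52 and 13.15 with a median of 12.76, and in the ANA line between 12.45 and 13.13 with a median of 12.82, a difference of 0.0078 ± 0.083 (SE, n = 10 and 10; limma, adjusted p = 0.997). In the sP line, Chgb lay between 12.16 and 13.04 with a median of 12.68, and in the sNP line between 12.33 and 13.15 with a median of 12.73, a difference of -0.068 ± 0.13 (SE, n = 8 and 9; limma, adjusted p = 1). P 4 was the highest and NP 8 the lowest array of the P and NP pair, and no pair of lines was separated.

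Scg2, the precursor of secretoneurin and a gene known to respond to cAMP, was higher in the preferring line in 3 pairs and lower in 2, without passing the test in any. In the HAD1 line, Scg2 lay between 12.40 and 13.20 with a median of 12.68, and in the LAD1 line between 12.21 and 12.96 with a median of 12.56, a difference of 0.11 ± 0.11 (SE, n = 9 and 10; limma, adjusted p = 0.782). In the HAD2 line, Scg2 lay between 12.44 and 13.15 with a median of 13.06, and in the LAD2 line between 12.72 and 13.32 with a median of 13.15, a difference of -0.11 ± 0.080 (SE, n = 10 and 10; limma, adjusted p = 0.485). HAD2 6 lay far below the other HAD2 arrays. In the P line, Scg2 lay between 12.85 and 14.18 with a median of 13.51, and in the NP line between 12.92 and 13.87 with a median of 13.36, a difference of 0.095 ± 0.16 (SE, n = 10 and 10; limma, adjusted p = 1). In the AA line, Scg2 lay between 13.15 and 13.91 with a median of 13.49, and in the ANA line between 13.16 and 13.70 with a median of 13.38, a difference of 0.090 ± 0.098 (SE, n = 10 and 10; limma, adjusted p = 0.983). In the sP line, Scg2 lay between 12.70 and 13.73 with a median of 13.38, and in the sNP line between 12.95 and 13.77 with a median of 13.32, a difference of -0.053 ± 0.14 (SE, n = 8 and 9; limma, adjusted p = 1). The lines of each pair overlapped. Without the doubted arrays the value was 0.28 ± 0.16 (SE; adjusted p = 0.713) for P and NP and 0.22 ± 0.10 (SE; adjusted p = 0.342) for AA and ANA, and neither passed the test.

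Vgf, a neurotrophin-induced gene whose peptides act on feeding, energy use and pain, gave the largest single granin difference. In the HAD1 line, Vgf lay between 10.91 and 11.58 with a median of 11.35, and in the LAD1 line between 10.89 and 11.50 with a median of 11.20, a difference of 0.12 ± 0.093 (SE, n = 9 and 10; limma, adjusted p = 0.689). In the HAD2 line, Vgf lay between 10.66 and 11.56 with a median of 11.13, and in the LAD2 line between 11.10 and 11.71 with a median of 11.35, a difference of -0.23 ± 0.093 (SE, n = 10 and 10; limma, adjusted p = 0.215). In HAD2 and LAD2 the unadjusted p of limma was 0.0234, and 8.49% of all probe sets had a larger difference in that pair. The log2 GAPDH 3′ to 5′ ratio went with Vgf inside these lines (r = -0.61 over 20 arrays), as did the array median (r = -0.78). With the GAPDH ratio as covariate the difference was -0.19 ± 0.076 (SE; adjusted p = 0.174), and after quantile normalization within the pair -0.24 ± 0.097 (SE; adjusted p = 0.228). The unadjusted p was 0.0503 without HAD2 6 and 0.0508 without LAD2 17. In the P line, Vgf lay between 11.58 and 12.16 with a median of 12.06, and in the NP line between 11.63 and 12.29 with a median of 12.13, a difference of -0.084 ± 0.091 (SE, n = 10 and 10; limma, adjusted p = 1). In the AA line, Vgf lay between 11.65 and 12.28 with a median of 12.07, and in the ANA line between 11.75 and 12.33 with a median of 12.08, a difference of -0.014 ± 0.085 (SE, n = 10 and 10; limma, adjusted p = 0.992). In the sP line, Vgf lay between 11.46 and 12.07 with a median of 11.80, and in the sNP line between 11.41 and 12.25 with a median of 11.81, a difference of -0.0022 ± 0.097 (SE, n = 8 and 9; limma, adjusted p = 1). HAD1 arrays were on average above LAD1 arrays and HAD2 arrays below LAD2 arrays, and all pairs overlapped.

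The number of granins called was 0 of 4 in every pair, at a Benjamini-Hochberg adjusted p under 0.05 in limma. Over all probe sets, 0.963% were called in HAD1 and LAD1, 4.09% in HAD2 and LAD2, and 0% in each of the other 3 pairs. The share in HAD1 and LAD1 was 0.58% without LAD1 36 and 0.0129% with that array counted as HAD1, and 0 of 4 granins were called in both cases. At an unadjusted p under 0.05, 1 of 20 granin differences passed, that of Vgf in HAD2 and LAD2, where 16.4% of all probe sets did; in the other pairs 11%, 4.91%, 4.92% and 4.32% did (HAD1/LAD1, P/NP, AA/ANA, sP/sNP). Without the doubted arrays the count stayed at 0 of 4 in each pair, against 2.56%, 4.09%, 1.62%, 1.87% and 1.75% of all probe sets in the order of pairs above. These shares are raised by the choice of arrays, from which the granins were kept out, so the granin count cannot be read against them. The bounds of the 95% confidence intervals lay between -0.42 and 0.42 over the 20 differences.

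Averaged over the 5 pairs with equal weight, the 95% confidence interval of each granin difference included 0. The mean difference was -0.067 for Chga (95% confidence interval -0.18 to 0.044) and -0.012 for Chgb (-0.11 to 0.082). For Scg2 it was 0.025 (-0.088 to 0.14), and for Vgf -0.041 (-0.13 to 0.044). The adjusted p of limma lay between 0.888 and 0.988, with 0.986% of all probe sets called and 2.97% without the doubted arrays. The unadjusted p was under 0.05 for 0 of 4 granins and for 7.8% of all probe sets. Rats are the replicates in these values. With the 5 line pairs as replicates, the unadjusted p of limma was 0.060 for Chga (SE 0.030) and 0.42 to 0.65 for the others. In that fit 0% of all probe sets were called after adjustment, and 3.33% had an unadjusted p under 0.05. Chga and Vgf were lower in the preferring line in 4 of 5 pairs each, Chgb in 3 and Scg2 in 2. An F test of whether the 5 differences varied gave adjusted p = 0.548 for Vgf and 0.899 to 0.996 for the others, with 4.54% of all probe sets called (14.7% at an unadjusted p under 0.05, against 0 of 4 granins).

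**Figure D2:**
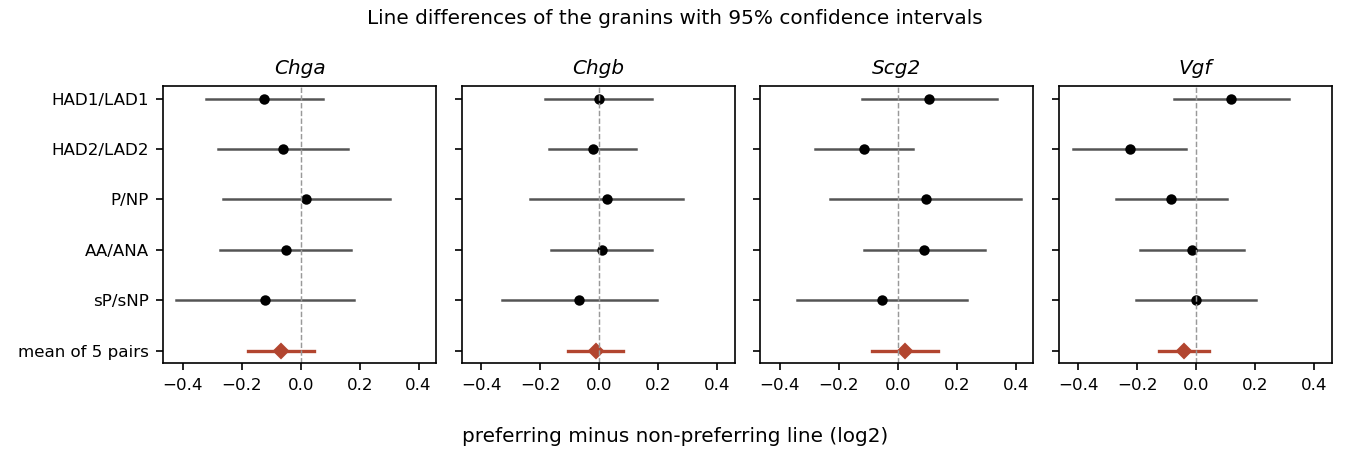
Preferring minus non-preferring difference of each granin (log2, horizontal axis) in each line pair and as the mean of 5 pairs, with 95% confidence intervals from limma. The interval of Vgf in HAD2 and LAD2 lies below 0 before adjustment, and all other intervals include 0.

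Although the lines did not separate, the granins varied more between rats of a line than most probe sets. The SD within lines was 0.28 for Chga and Scg2, 0.23 for Chgb and 0.21 for Vgf, against a median of 0.17 over all probe sets. In that order of genes, 86.0%, 86.4%, 77.1% and 71.0% of probe sets had a smaller SD. These deviations from the line mean are what the following correlations use.

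The granins moved together from rat to rat. Over all 96 arrays, Pearson's r of the deviations was 0.76 for Chga and Chgb, 0.73 for Chgb and Scg2, and 0.71 for Chga and Scg2. Vgf followed less closely, with r = 0.51 to Chga, 0.44 to Chgb and 0.40 to Scg2. Spearman's rho was 0.74, 0.73 and 0.72 for the first 3 gene pairs and 0.50, 0.39 and 0.37 for those with Vgf. In a permutation test within lines, two-sided, all 6 Pearson values passed after adjustment over 36 relations, with adjusted p of 5.1e-05 for 5 of them and 0.00033 for Scg2 and Vgf; 1e-05 is the smallest unadjusted p that 100000 permutations can give. Spearman's adjusted p was at most 0.000849. Leaving out the 2 arrays farthest from the median of the first gene gave 0.79, 0.69, 0.71, 0.50, 0.44 and 0.43 in the order above.

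In 45 of 96 arrays all 4 granins lay on the same side of their line mean, 24 above and 21 below. P 4 was the array with the highest mean deviation: Chga lay 0.60, Chgb 0.59, Scg2 0.74 and Vgf 0.17 above the mean of the P line. At the other end, NP 8 had -0.51 for Chga, -0.50 for Chgb, -0.42 for Scg2 and -0.33 for Vgf. HAD2 6, with -0.33, -0.24, -0.56 and -0.49 in the same order of genes, was also low for all 4. The leading component of the 4 deviations held 70.0% of their summed variance.

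The strength of the relation differed between line pairs. In sP and sNP all 6 gene pairs passed (adjusted permutation p at most 0.00396), with r between 0.70 and 0.96. In P and NP 4 of 6 passed, with r from 0.30 for Scg2 and Vgf to 0.89 for Chga and Scg2. In HAD2 and LAD2 4 of 6 passed, and in AA and ANA 3 of 6, with the highest values at 0.80 for Chga and Chgb and 0.72 for Chgb and Scg2. These counts are by Pearson's r. Spearman's rho did not pass for Scg2 and Vgf in HAD2 and LAD2 (0.385, adjusted permutation p = 0.144). Nor did it for Chgb and Vgf in P and NP (0.48) or Chga and Vgf in AA and ANA (0.49, adjusted permutation p = 0.0603 for both). By rho, gene pairs with Vgf passed in sP and sNP alone. In HAD1 and LAD1 0 of 6 passed by Pearson's r (0.072 to 0.44), and an unadjusted p under 0.05 was also reached by 0; Spearman's rho of Chga and Scg2 there was 0.58 (adjusted permutation p = 0.0173). In each line pair r was above 0 for all 6 gene pairs. The difference in r between line pairs was not tested.

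A few arrays weighed on single values. In HAD2 and LAD2 the r of 0.65 between Scg2 and Vgf was 0.29 without LAD2 11 and HAD2 6, so it rests on those arrays. Chga and Scg2 in HAD1 and LAD1 went from 0.42 to 0.67 without HAD1 30 and LAD1 39. In AA and ANA the r of Chgb and Vgf went from 0.41 to 0.20 without AA 3 and ANA 10. Without the doubted arrays, the 6 values lay between 0.43 and 0.94 in P and NP, 0.49 and 0.72 in AA and ANA, 0.67 and 0.96 in sP and sNP, and -0.032 and 0.54 in HAD1 and LAD1. Without sP 2 and sNP 2, which are close to identical, those of sP and sNP lay between 0.70 and 0.96.

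**Figure D3:**
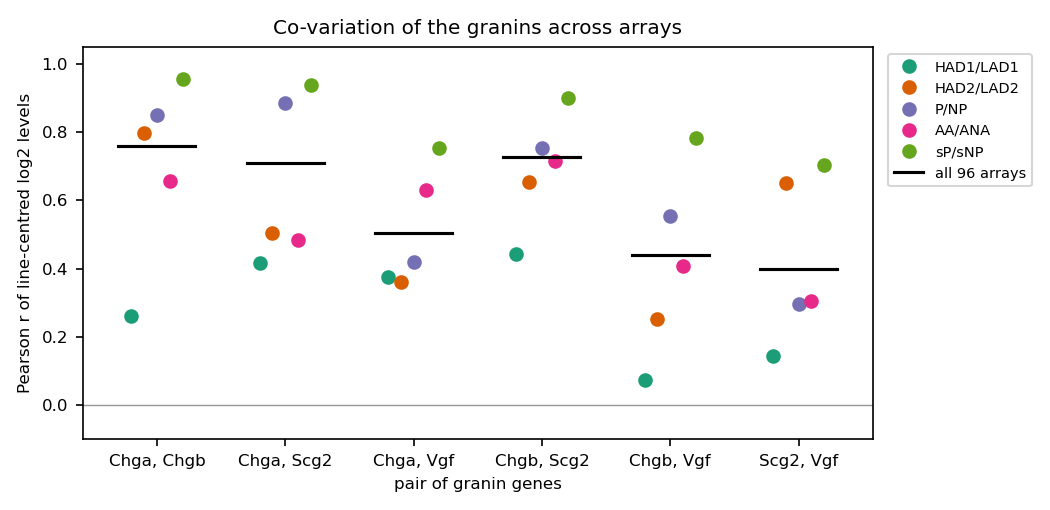
Pearson's r of the line-centred log2 levels of each pair of granin genes (vertical axis), within each line pair (coloured points) and over all 96 arrays (black bars). Values for sP and sNP lie highest in all 6 gene pairs, HAD1 and LAD1 lowest in 5, and the 3 gene pairs with Vgf have the lowest bars.

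Marker genes moved with the granins. Over all arrays, the mean of the 10 central amygdala markers had r = 0.88 with Scg2, 0.74 with Chga, 0.65 with Chgb and 0.47 with Vgf, given as descriptions with no test. The list was not uniform: 6 of the 10 genes had r above 0.5 with Chga and with Scg2, 5 with Chgb and 0 with Vgf. Over all genes the shares were 6.24% with Chga, 4.85% with Scg2, 8.13% with Chgb and 1.44% with Vgf. With Vgf, whose values were lower over all genes (95th percentile 0.41), the median r of the list was 0.39. Gad1, Gad2, Calcrl and Isl1, named after their values were seen, had r between -0.010 and 0.10 with Chga, and Isl1 had -0.17 with Chgb. For Scg2 the value was 0.62 to 0.97 in each of the 5 line pairs; for Chgb it was 0.16 in HAD1 and LAD1 and 0.47 to 0.94 in the others. The marker list itself holds peptides stored with granins, among them Sst, Crh and Nts. When the mean of this list was taken out by regression within line pairs, an alternative chosen after seeing the data, r fell from 0.71 to 0.16 for Chga and Scg2, from 0.44 to 0.21 for Chgb and Vgf and from 0.40 to -0.047 for Scg2 and Vgf. These 3 no longer passed the permutation test (adjusted p = 0.162, 0.0865 and 0.675), and the other 3 did, with r between 0.30 and 0.52.

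Over all arrays, markers of oligodendrocytes and endothelium went the other way. The mean of 7 oligodendrocyte genes of 8 listed had r between -0.56 (Chgb) and -0.40 (Vgf), and all 7 genes were negative with each granin. Of all genes, 51.5% to 55.2% were positive with a granin. The mean of 7 endothelial and pericyte genes had r between -0.58 and -0.47, again with all 7 negative. The oligodendrocyte mean lay between 11.91 and 13.93 over the arrays (log2) and the endothelial mean between 9.03 and 9.98, with Ugt8 and Flt1 the dimmest members at 10.06 and 7.14. HAD1 and LAD1 differed in sign for part of these values. There the oligodendrocyte mean had r = 0.59 with Chgb, 0.11 with Chga, 0.077 with Vgf and -0.13 with Scg2, and with Chgb the astrocyte mean had 0.65 and the endothelial mean 0.24. With the endothelial mean taken out, r of Scg2 and Vgf was 0.15 (adjusted permutation p = 0.181), and with the oligodendrocyte and astrocyte means taken out it was 0.20 (p = 0.0622); the other 5 gene pairs passed in both cases. The mean of 7 pan-neuronal genes had r between -0.12 and 0.12 over all arrays, though 0.88 with Chgb in HAD1 and LAD1 and -0.72 with Chga in AA and ANA. The mean of 7 striatal genes had r between -0.15 and -0.040 over all arrays, but line pairs went in both directions: r was 0.64 to 0.70 in HAD2 and LAD2 and 0.76 for Scg2 in HAD1 and LAD1, against -0.51 for Scg2 in sP and sNP and -0.46 for Vgf in AA and ANA. The means of astrocyte and microglial genes had r between -0.33 and -0.23 with the granins, that of basolateral and cortical genes between 0.11 and 0.39, and that of choroid plexus genes between -0.018 and 0.019. The GAPDH ratio had r between -0.18 and 0.16 over all arrays, and 0.64 with Chgb in HAD1 and LAD1. The part of dissection or cell makeup in the co-variation was not tested beyond these values.

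**Figure D4:**
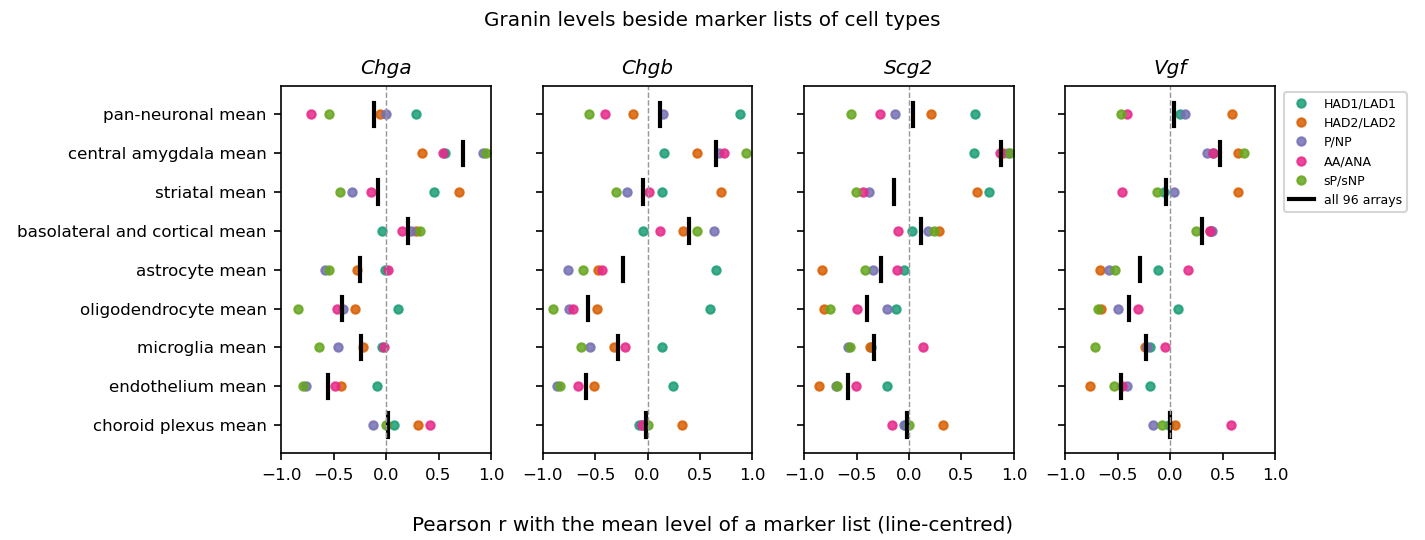
Pearson's r between each granin and the mean log2 level of marker lists, on deviations from the line mean (horizontal axis), in each line pair (points) and over all 96 arrays (black bars). The central amygdala bar is the highest for each granin, and the endothelial and oligodendrocyte bars are the lowest pair.

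Many genes followed the granins as closely as the granins followed each other. Among 14216 other genes ranked by r with Chga, Chgb was number 29, Scg2 number 108 and Vgf number 857. The 5 genes most like Chga over 96 arrays were Rap1gap (r = 0.90), Ncdn (0.88), Ampd2 (0.84), Camk1g (0.83) and Tagln3 (0.83). Rap1gap switches off the small GTPase Rap1, Ncdn encodes neurochondrin of neurites, and Camk1g is a calcium-dependent kinase. Wrnip1 (0.88), Akap9 (0.85), Vopp1 (0.84), Rbm34 (0.83) and Ptprr (0.83) were most like Chgb. Camk2d (0.85), Rbm11 (0.85), Ocrl (0.84), Akap9 (0.84) and Ptpro (0.83) were most like Scg2; Ocrl is a phosphatase of the Golgi and endosomes. For Vgf these were Ptprn (0.66), Ubald1 (0.65), Nalf2 (0.63), Plppr2 (0.63) and Palm (0.62). Ptprn, also called IA-2, is a membrane protein of dense-core granules, and it was number 11 for Chga (0.79).

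The lists of followers overlapped in part. Of the 100 genes most like each granin, Chga shared 41 with Chgb and 43 with Scg2, and Chgb shared 40 with Scg2. Vgf shared 22 of its 100 with Chga and 10 each with Chgb and Scg2. The 5 genes among the first 100 of all 4 granins were Rps6ka2, a kinase of the RSK family, Camk1g, Crip2, Ampd2 and Dgkg. They are named after their values were seen. An r above 0.5 was reached by 6.24% of genes with Chga, 8.13% with Chgb, 4.85% with Scg2 and 1.44% with Vgf.

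Further genes of the granule pathway were read from 6 lists with 61 genes measured in all. Granin relatives came first: Scg3, Scg5, Pcsk1n and Resp18, proteins of the regulated secretory pathway, were measured for 4 of 4, and 0 passed the test in any pair. Of the prohormone processing enzymes 6 of 7 were measured, of granule membrane and release genes 12 of 12, of neuropeptide cargo 18 of 19, of immediate early genes 15 of 18, and of CREB and REST regulators 6 of 6. Read from the brightest probe set of each of the 61 genes, 3 were higher and 0 lower in HAD2 than in LAD2. By the same reading 0 passed in each of the other pairs. A second probe set of Hid1 was 0.46 higher in HAD1 than in LAD1 (limma, adjusted p = 0.00508), where the brightest one did not pass. Over all 14217 genes, 305 were higher and 228 lower in HAD2 (3.75%), and in HAD1 31 were higher and 66 lower (0.682%); the other 3 pairs had 0%. In the mean over pairs 0 of the 61 and 0.816% of all genes passed.

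The 3 genes were Ptprn2, Qpct and Jun. Ptprn2, the partner of Ptprn in the granule membrane, had a level of 11.44 ± 0.15 (SD) over 10 HAD2 rats and 11.21 ± 0.094 over 10 LAD2 rats, a difference of 0.24 ± 0.057 (SE; limma, adjusted p = 0.0140), with single arrays of both lines overlapping. Qpct, the enzyme that forms pyroglutamate at the start of peptides, was 0.30 ± 0.083 (SE) higher in HAD2 (adjusted p = 0.0392). Jun, a subunit of AP-1, was 0.32 ± 0.088 (SE) higher (adjusted p = 0.0419), but its 2 other probe sets differed by 0.026 and 0.16 and did not pass. With all 10 lines in 1 fit, Jun alone of the 3 still passed. The medians of the 6 lists lay between -0.079 (cargo) and 0.057 (CREB and REST regulators) in this pair, beside -0.0039 over all genes.

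Rab27b, a small GTPase that docks granules at the plasma membrane, varied among the line pairs (F test, adjusted p = 2.63e-04). It was 8.05 ± 1.10 (SD, n = 10) in P and 9.60 ± 0.88 (n = 10) in NP, a difference of -1.55 ± 0.41 (SE; limma, adjusted p = 0.452). The difference was -0.53 ± 0.18 in AA and ANA (SE; adjusted p = 0.802), and 0.40 ± 0.16 in sP and sNP (not past the test). Its other probe set differed by -0.42, -0.18 and -0.056 in these pairs with all arrays and did not pass. The probe sets thus did not give the same size, nor the same sign in sP and sNP.

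Across arrays, granin relatives were all positive with the granins, beside 51.5% to 55.2% of all genes, while processing enzymes were of both signs. A difference between the lists was not tested. The median r over the 4 relatives was 0.52 with Chga, 0.47 with Chgb, 0.43 with Scg2 and 0.32 with Vgf, and Scg5 was the lowest member with Chga, Scg2 and Vgf (0.24, 0.25 and 0.052). Resp18 led with 0.71 to Scg2 and 0.68 to Chga. For the 6 enzymes the medians were 0.040 to 0.14, beside 0.0092 to 0.035 over all genes, with Qpct at 0.62 to Scg2 and Cpe at 0.45 to Chgb. Cpd was negative with each granin (-0.33 to -0.23). Scg5, Resp18, Cpe and Cpd are named after their values were seen. For 12 membrane and release genes they were 0.24 to 0.34, with Ptprn and Ptprn2 among the highest at 0.79 and 0.70 to Chga.

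The peptides themselves split. Of 18 cargo genes 13 were positive with Chga, beside 55.2% of all genes, and 7 had r above 0.5 with Scg2, beside 4.85% of all genes, among them Nts and Crh (both 0.80). An r above 0.5 was reached by 4 cargo genes with Chga, 4 with Chgb and 0 with Vgf. The shares over all genes were 6.24%, 8.13% and 1.44%. Cartpt had 0.74 with Chga. Tac1 was negative with Chga (-0.36) and Npy with Scg2 (-0.27); these genes too are named after their values were seen. No immediate early gene of 15 reached r above 0.5 with any granin, which is near the background of 1.44% to 8.13% of all genes, and the medians were 0.0037 to 0.18. The highest median was that with Vgf, where members ranged from -0.30 (Ier2) to 0.48 (Fosb), beside a 95th percentile of 0.41 over all genes. Both genes are named after their values were seen. Of the 6 regulators, Crtc1, a coactivator of CREB, had 0.56 with Chga and 0.39 with Scg2, while Creb1 had -0.18 with Scg2; both are named after their values were seen.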

How the data were processed

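RNA from the central nucleus of the amygdala of 96 rats was measured on 1 array each. The authors deposited log2 values from RMA (background correction, normalization between arrays and probe set summary), per the submitters' processing notes. No source used here gives the RMA version or says whether line pairs were normalized jointly. Precision is limited by the number of arrays, and no detection calls were used.

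From the 31042 non-AFFX probe sets, 20826 carried 1 symbol, 436 several, and 9780 were unnamed; 20758 matched RefSeq by Entrez identifier. Groups came from the sample titles and source names. Each line pair was fitted alone with limma 3.58.1 in R 4.3.3 (lmFit, eBayes with trend), two-sided, with Benjamini-Hochberg adjustment over all probe sets and a threshold of 0.05. A fit of all 10 lines gave the mean of 5 differences and the F test. Correlations used deviations from the line mean and 100000 permutations within lines. A gene was read from its brightest probe set of a single symbol. The methods were tested on simulated data.

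The members and lists were chosen with earlier results of these data known. Named genes are the granins, members of each list past the test (at most 2 per direction and list) and the 5 genes most correlated with each granin; others are named as chosen after their values were seen. P-values measure the spread between rats of a line. Alternatives covered the fit, filters, normalization, RNA quality, doubted arrays and single arrays; those that take out central amygdala, endothelial, pan-neuronal or glial marker means or the actin ratio, or leave out a line pair in the correlations, were chosen after seeing the data. Python 3.11.15 and numpy 2.4.6 were used for correlations and motif searches.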

Additional observations from a re-analysis of the deposited data

Results flagged for a closer look

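In 3 of 40 sets of arrays (4 granins in 10 lines), 1 array lay far from the others by Dixon's test at the 95% level, and chance alone marks about 1 in 20 sets. Chga was 10.38 in HAD1 30, against 10.85 for the next lowest HAD1 array. Scg2 was 12.44 in HAD2 6, against 12.91 for the next. Vgf was 11.65 in AA 19, against 11.94 for the next, and AA 19 is also a doubted array.

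Differences of 3 of the 61 measured genes of the granule lists varied among the 5 line pairs in limma's F test. That share is near the 4.54% of all probe sets called in this test, so the count does not set the lists apart. For Rab27b the adjusted p was 2.63e-04. For Crem, a CREB-family factor, it was 0.0245, with -0.30 in HAD1 and LAD1 and 0.21 in HAD2 and LAD2, where neither passed alone. Its 5 other probe sets were of mixed sign, from -0.15 to 0.20 in HAD1 and LAD1 and from -0.16 to 0.39 in HAD2 and LAD2, and 0 passed. For Hid1, which acts in granule formation at the Golgi, it was 0.0371, with -0.23 in HAD1 and LAD1, where its other probe set gave 0.46 (adjusted p = 0.00508), the opposite sign.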

How the results depend on the processing

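No granin passed the test in any line pair, in the mean over pairs or in the F test under any alternative run; over all settings and single arrays left out, the 580 values of granin differences lay between -0.27 and 0.28, with a lowest adjusted p of 0.0905. Small differences changed sign. With array weights, Chgb was 0.021 in HAD1 and LAD1, -0.022 in P and NP and 0.0055 in the mean over pairs, and Vgf 0.014 in sP and sNP. With the GAPDH ratio as covariate, Chgb was 0.052 in HAD1 and LAD1, Chga and Chgb -0.031 and -0.037 in P and NP, and Chga, Chgb, Scg2 and Vgf 0.065, 0.034, 0.12 and 0.093 in sP and sNP. With quantile normalization Chgb was 0.015 in HAD1 and LAD1. Without the doubted arrays it was 0.018 there, Chga 0.034 in AA and ANA, and Vgf 0.013 in sP and sNP. Without HAD2 and LAD2 the mean of Vgf was 0.0047, and without sP and sNP that of Chgb was 0.0020. Leaving out 1 array at a time, Chgb ranged from -0.040 to 0.038 in HAD1/LAD1, -0.058 to 0.0057 in HAD2/LAD2, -0.041 to 0.076 in P/NP, -0.032 to 0.047 in AA/ANA and -0.12 to 0.0056 in sP/sNP. Chga ranged from -0.048 to 0.079 in P/NP and -0.094 to 0.011 in AA/ANA, Scg2 from -0.12 to 0.030 in sP/sNP, and Vgf from -0.050 to 0.032 in AA/ANA and -0.055 to 0.051 in sP/sNP.

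Correlations that lost the test or changed sign were those with marker means taken out: 0.16 (Chga and Scg2), 0.21 (Chgb and Vgf) and -0.047 (Scg2 and Vgf) for central amygdala genes, and 0.15 and 0.20 (Scg2 and Vgf) for endothelial and for glial genes. The cause was not tested. The other 85 correlation values passed with the same sign.

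Of the granule lists, 1 gene passed in HAD1 and LAD1 without the doubted arrays (Hid1), 1 in P and NP (Rab27b), 2 in AA and ANA (Rab27b and Creb1) and 1 in sP and sNP (Rab27b). Arrays were doubted by a score of line-separating probe sets from which only the granins were kept out, so these calls are favoured by the choice of arrays and are no separate support. The 3 other Creb1 probe sets differed by 0.014 to 0.044 in AA and ANA with all arrays and did not pass. With all lines in 1 fit, 2 passed in HAD1 and LAD1 (Pam and Crem), 1 in HAD2 and LAD2 (Jun) and 1 in P and NP (Rab27b). The other Pam probe sets gave 0.034 and -0.016 in HAD1 and LAD1, against 0.26 for the one used.

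Same-numbered rats of P and NP, and of sP and sNP, deviated together in 5 of 10 and 3 of 8 cases (r above 0.1). Their median r was 0.11 in P and NP, against -0.030 for rats of other numbers. In sP and sNP it was 0.088, against -0.046. The best match had the same number in 2 of 10 and 1 of 8 cases. The labels used here do not say whether the numbers pair the samples, and these values cannot settle it. A replicate block left 0 granins called; Chga was 0.019 in P and NP and -0.17 in sP and sNP under it. The use of each other probe set of a granin was not run, since each has 1.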
